A study of Mus musculus with 10 samples.

Results

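The genes described here are 36 genes of fatty acid oxidation, among 27267 genes listed in RNA-seq data of interscapular brown adipose tissue (iBAT). They were chosen by name and pathway and comprise 20 genes of the mitochondrial route, with the carnitine shuttle that feeds it, and 16 genes of the peroxisomal route. The tissue came from 5 wild-type mice and 5 mice labelled global *Mgp*-KO, a deletion in every tissue of the gene for matrix Gla protein, which is a secreted inhibitor of bone morphogenetic proteins, and mice with this deletion are known to develop vascular disease. All 10 mice were of strain C57BL/6, were labelled male, were 4 weeks old and ate standard chow. The study asked how the loss of *Mgp* alters transcription in iBAT, and the comparison here is between both genotypes for each gene and for each organelle. All 36 members passed a minimum mean of 10 normalized counts, and were tested together with the other genes past this minimum, 13714 in all. The fewest reads of any member in any library were 57, for *Cpt1b*.

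Fatty acids are the main fuel of brown adipocytes, which burn them in mitochondria to make heat through uncoupling protein 1. Long chains enter the mitochondrion as carnitine esters and are shortened there by repeated dehydrogenation, hydration, dehydrogenation and thiolysis, and the electrons pass through the electron transfer flavoprotein to the respiratory chain. Very long, branched and dicarboxylic chains are first shortened in peroxisomes by a separate set of enzymes, which transfer the electrons of the first step to oxygen. Many genes of both routes are known targets of the PPAR family of nuclear receptors. *Crat* and *Eci2*, counted here as mitochondrial, and *Ech1* and *Amacr*, counted as peroxisomal, have products known in both organelles.

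The libraries fell into groups that the labels do not name. Replicates 1 to 3 of both genotypes held 19616366 to 22252260 reads on genes, with 0.771% to 1.72% of them on mitochondrial ribosomal RNA, and replicates 4 and 5 held 9253793 to 13281873 reads, with 6.50% to 16.7%. Between these sets 38.2% of the tested genes differed (5243 of 13714, limma with a genotype term, adjusted p under 0.05). *Mgp* itself had normalized counts of 576, 489, 466, 1146 and 839 across the wild-type libraries (WT 1 to 5) and of 0, 0.765, 0.821, 500 and 331 in the 5 libraries labelled *Mgp*-KO (KO 1 to 5). KO 4 and KO 5 thus hold reads of the gene that their label says was deleted, and the group is named by its label, as KO-labelled libraries, throughout. The library labelled wild type 2 had 5094 normalized counts of *Xist* and a sum of 3.74 over Y-linked genes, which goes against its male label. Counts over the members are given for all 10 libraries together, for a model that includes the replicate set, and inside each set, and single members for the fits stated beside them. Where nothing else is said, a log2 fold change compares the KO-labelled libraries with wild type on the scale log2(normalized count + 1), with its standard error (SE) and an adjusted p from limma (Benjamini-Hochberg over all tested genes). These p-values rest on the spread between the sampled mice. Over all libraries and without the set term, that spread also holds the difference between the replicate sets.

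Markers showed the labelled tissue in every library, with between 2201 and 116019 normalized counts of *Ucp1*, which encodes uncoupling protein 1. The 10 brown adipocyte markers summed to between 98648 and 193534 in wild type and to between 49182 and 95720 in the KO-labelled libraries. These sums did not overlap. They include *Ucp1*, with 38421 to 116019 in wild type and 2201 to 15641 in the KO-labelled libraries. *Cidea*, also among the 10, overlapped (29974 to 43754 and 19856 to 43537). Log2 fold changes were below 0 for 8 of the 10 and above 0 for 2 (median -0.40), beside 47.3% of all tested genes below 0. Over all libraries 0 of the 10 markers passed in limma, with 4 lower at an unadjusted p under 0.05 (5.69% of all tested genes), and without KO 4 there was 1, *Ucp1* (adjusted p = 0.0487, limma), where 0.394% of all tested genes were called lower. With the set term 3 of the 10 fell, against 1.54%, namely *Ucp1* (log2 fold change -2.70), *Dio2* (-3.35) and *Elovl3* (-3.64, adjusted p = 0.0104). The 7 general adipocyte markers overlapped between the groups (280877 to 604811 against 318466 to 481196), and 0 of 7 passed with or without the set term in limma, with 1 of 7 lower at an unadjusted p under 0.05 over all libraries and 2 of 7 with the set term, where the shares over all tested genes were 5.69% and 10.1%. The 14 skeletal muscle markers summed to 44330 and 47428 in KO 2 and 5 and to between 566 and 8611 in the other libraries. The 9 endothelial markers summed to 18715 to 21300 in WT 1 to 3 and 21323 to 25412 in KO 1 to 3, and to 30584 and 18583 in WT 4 and 5 and 55478 and 29420 in KO 4 and 5. Their log2 fold changes were above 0 for 9 of 9 over all libraries (median 0.41) and for 7 of 9 without KO 4 (median 0.21). In limma 0 of 9 passed with or without the set term, with 1 higher at an unadjusted p under 0.05 over all libraries and 2 with the set term, where 4.67% and 9.26% of all tested genes were higher. The 3 listed hepatocyte markers summed to 162 in KO 4 and to between 0 and 9 in the others. In bulk tissue, fewer brown adipocytes and less RNA of a gene in each of them cannot be told apart, and the part of these differences in the results on the members was not tested.

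In wild type the mitochondrial genes were the more abundant. Normalized counts per kilobase of annotated exon had a median of 2917 over the 20 mitochondrial members and of 295 over the 16 peroxisomal members, and the following levels are on this scale. The highest means were those of *Acaa2*, the mitochondrial thiolase (20477 ± 2013, SD, n = 5), and of the acyl-CoA dehydrogenases *Acadl* (19965 ± 4919) and *Acadvl* (13152 ± 1444). In each of WT 1 to 3 *Acaa2* was above *Acadl* (means of 19625 and 16453), and in WT 4 and 5 it was below (21756 and 25232). The libraries of *Acaa2* and *Acadl* overlapped (18652 to 23481 and 15916 to 26548), and all those of *Acadvl* lay below both (11700 to 14946). The most abundant peroxisomal members were *Ech1*, an isomerase for unsaturated chains (7725 ± 814), and *Phyh*, which starts the alpha-oxidation of phytanic acid (5808 ± 371). *Ehhadh*, the peroxisomal bifunctional enzyme, reached 714 ± 101 and *Abcd3*, a transporter of fatty acyl-CoA in the peroxisomal membrane, 793 ± 269. The lowest were *Cpt1b* (90.8 ± 17.2), *Acox3*, an acyl-CoA oxidase for branched chains (85.3 ± 18.5), and *Cpt1a* (41.0 ± 8.45). The exon length joins all annotated transcripts of a gene, 11521 bases for *Acox3*, so the ranks depend on it. In normalized counts the mean of *Acox3* was 983, above *Acaa1b* (348) and *Pecr* (395) among others. *Cpt1a* (313) and *Cpt1b* (306) were the lowest there too. The place of *Cpt1b* depends on how its reads were assigned, since 78.6% of its 50-base windows also lie in another gene, *Gm44502*. Per kilobase, *Cpt1b* and *Acox3* overlapped (75.2 to 118.5 and 58.8 to 103.3), and *Cpt1a* lay below both in every library (27.4 to 49.9). *Cpt1b* was below *Acox3* in WT 1 to 3 and above it in WT 4 and 5.

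Over all 10 libraries no member passed the threshold, and 2 peroxisomal genes, *Ehhadh* and *Abcd3*, fell once the replicate set was in the model. In limma over all libraries 0 of 36 members were called, where 0.0656% of all tested genes were (9 of 13714). At an unadjusted p under 0.05, 6 of 36 members were lower and 0 higher, 3 in each organelle, against 5.69% of all tested genes that were lower. With the set term 2 of 36 members were called, both lower and both peroxisomal, against 1.54% of all tested genes called lower, and 12 of 36 were lower at an unadjusted p under 0.05, against 10.1%. On the reads, edgeR without a further term called 0 members and DESeq2 2, again *Ehhadh* and *Abcd3*, against 1.55% of all tested genes called lower by DESeq2. DESeq2 with the set term also called the mitochondrial genes *Cpt2*, *Crat* and *Hadha*, 5 members in all and each of them lower, where 4.61% of all tested genes were called lower. The median log2 fold change was -0.42 over the mitochondrial and -0.25 over the peroxisomal members, beside 0.026 over all tested genes. Values below 0 were found for 17 of 20 mitochondrial and 15 of 16 peroxisomal members, and for 47.3% of all tested genes. In replicates 1 to 3 they were found for 11 of 20 and 9 of 16, beside 47.4% of all tested genes, and in replicates 4 and 5 for 17 of 20 and 16 of 16, beside 48.5%. Without KO 4 the counts were 16 of 20 and 12 of 16, beside 47.7%.

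*Ehhadh* encodes the L-bifunctional enzyme, which carries out the hydration and the second dehydrogenation of the peroxisomal spiral and is known for dicarboxylic chains. The gene spans bases 21761287 to 21787807 of chromosome 16 on the reverse strand (GENCODE, GRCm38), and none of its 50-base exon windows occurs in another annotated gene. Its normalized counts were 1926, 1964, 2378, 2521 and 1848 in WT 1 to 5 and 525, 754, 801, 887 and 273 in KO 1 to 5. Every KO-labelled library was below every wild-type library, and the lowest wild-type value was 1848 against a highest of 887. The means were 2127 ± 301 and 648 ± 249 (SD, n = 5 each), a ratio of 3.28. The log2 fold change was -1.82 (SE 0.296, adjusted p = 0.0504 over all libraries; SE 0.284, adjusted p = 0.0141 with the set term, limma). Taken alone, replicates 1 to 3 gave -1.61 (adjusted p = 0.00952, limma) and replicates 4 and 5 gave -2.13 (adjusted p = 0.679, limma, 2 against 2). *Ehhadh* was the 1 member called within replicates 1 to 3, where 1.65% of all tested genes were called lower, and 0 of 36 were called within replicates 4 and 5, with 9 of 36 lower at an unadjusted p under 0.05, against 3.27% of all tested genes.

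*Abcd3* encodes the peroxisomal half-transporter also known as PMP70. The gene spans bases 121758774 to 121815302 of chromosome 3 on the reverse strand. Its normalized counts were 4435, 4600, 4255, 4454 and 8389 in WT 1 to 5 and 2754, 1804, 3018, 2752 and 3084 in KO 1 to 5. The groups did not overlap, and wild type 5 stood well above the other wild-type libraries. The log2 fold change was -0.93 (SE 0.238, adjusted p = 0.164 over all libraries; SE 0.200, adjusted p = 0.0369 with the set term, limma), and the sets alone gave -0.84 (replicates 1 to 3) and -1.07 (replicates 4 and 5). Without wild type 2 the set term gave an adjusted p of 0.0981 for *Abcd3* and 0.0426 for *Ehhadh*, and without KO 4 it gave 0.0373 and 0.00399 (limma). The fit without KO 4 also called *Cpt2* (adjusted p = 0.0499, limma) and *Acaa1b*, both lower, where 2.69% of all tested genes were called lower. The brown adipocyte marker sum, which includes the large *Ucp1* counts, was also lower in all KO-labelled libraries, as given above. Its part in these results was not tested.

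**Figure D1:**
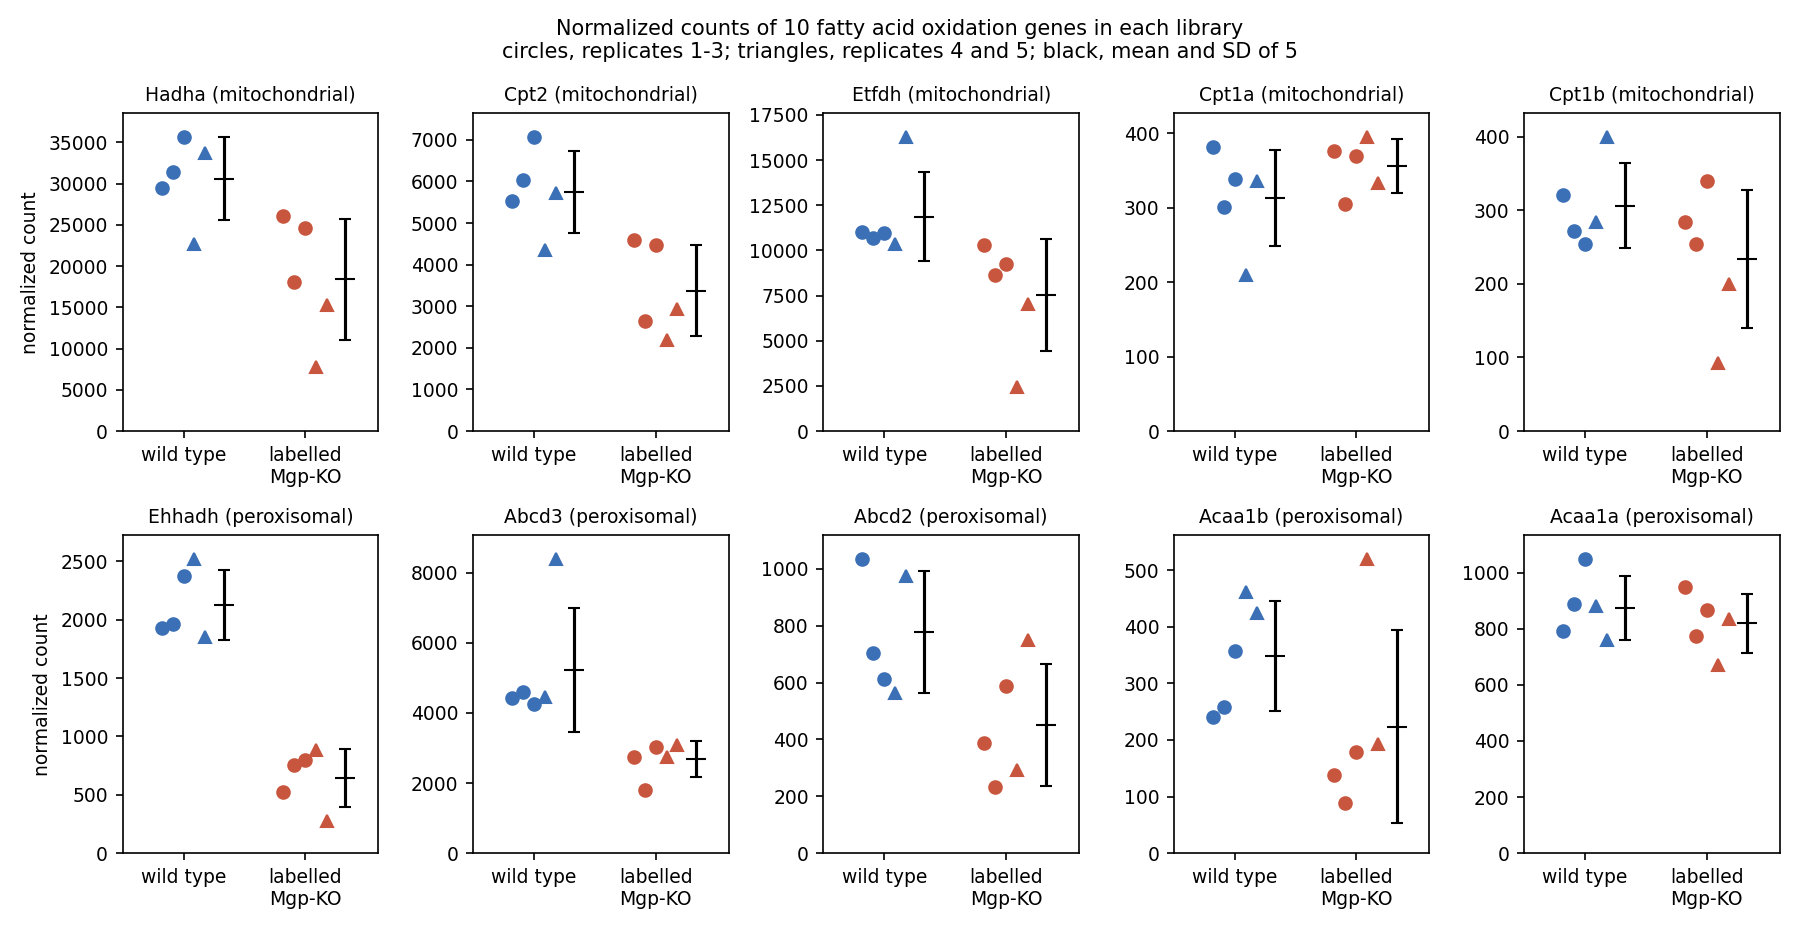
Normalized counts (vertical axes, each from 0) of 10 members in the 5 wild-type libraries (blue) and the 5 KO-labelled libraries (red). Circles are replicates 1 to 3, triangles replicates 4 and 5, and black bars the mean and SD. Ehhadh, Abcd3 and Etfdh show no overlap between the groups, while Cpt1a and Acaa1a overlap widely.

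Stretches before the start of *Ehhadh* and *Abcd3* are shown with that of *Acaa1b*, the member with the second largest difference in replicates 1 to 3, to set their sequences side by side. Each is the RefSeq window of 250 bases before the annotated start (GRCm38.p6, reverse strand, written 5′ to 3′) and overlaps no annotated exon, and for *Abcd3* it is the upstream one of 2 annotated starts. They span chr16:21787835-21788084, chr3:121815303-121815552 and chr9:119157094-119157343. Capitals mark a CCAAT box (CCAAT, read as ATTGG on the other strand) or a GC box (GGGCGG or CCGCCC).
Ehhadh: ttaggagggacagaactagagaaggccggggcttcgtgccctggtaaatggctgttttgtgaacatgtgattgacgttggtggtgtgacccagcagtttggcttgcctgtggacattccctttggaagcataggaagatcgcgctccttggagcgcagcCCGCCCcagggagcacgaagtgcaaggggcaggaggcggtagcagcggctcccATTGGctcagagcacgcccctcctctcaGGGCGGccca
Abcd3: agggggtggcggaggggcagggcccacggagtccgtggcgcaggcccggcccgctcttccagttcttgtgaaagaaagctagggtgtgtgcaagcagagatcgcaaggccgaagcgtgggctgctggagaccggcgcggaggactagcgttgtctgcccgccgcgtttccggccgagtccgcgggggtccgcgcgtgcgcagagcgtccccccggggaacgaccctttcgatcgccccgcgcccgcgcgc
Acaa1b: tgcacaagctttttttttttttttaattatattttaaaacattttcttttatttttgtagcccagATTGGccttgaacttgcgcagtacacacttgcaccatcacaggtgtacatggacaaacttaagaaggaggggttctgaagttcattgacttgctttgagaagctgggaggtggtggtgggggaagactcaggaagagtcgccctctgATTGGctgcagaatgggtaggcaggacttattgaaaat
The *Ehhadh* and *Acaa1b* windows share a CCAAT box that begins 38 bases before the start, and the *Abcd3* window, with 72% G and C, holds neither motif. The half-site of nuclear receptors of the PPAR type (AGGTCA, both strands) was in none of the 3 windows. It was found in 5 of 30 windows of 29 members (16.7%) and in 14.0% of all 32851 windows of this length. A pair of such half-sites in 1 orientation with 1 base between them, which would also count as half-sites, was in 0 of 30 member windows and in 11 of all windows. CCAAT boxes were in 12 of 30 member windows, against 33.9% of all, and GC boxes in 20 of 30 (66.7%), against 32.7% of all. The member windows were richer in G and C than the rest, with a median of 59.2% against 52.4%. Such matches describe these windows only.

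No other enzyme of the peroxisomal spiral passed the test with the set term. *Hsd17b4*, the D-bifunctional enzyme that catalyses the same 2 steps, had a mean of 4561 ± 786 normalized counts in wild type and 3989 ± 1532 in the KO-labelled libraries, with overlapping groups. In replicates 1 to 3 its mean was 104% of wild type where that of *Ehhadh* was 33.2%. Per kilobase, the ratio of *Ehhadh* to *Hsd17b4* within a library was 0.468, 0.485, 0.554, 0.887 and 0.395 for WT 1 to 5, and for KO 1 to 5 it was 0.107, 0.213, 0.177, 0.587 and 0.0911. It was lower in 4 of the 5 latter than in any wild-type library, the exception being KO 4. This ratio was chosen after the values were seen and was not tested. *Acox3* was at 131% of wild type in replicates 1 to 3, with no overlap, and at 82.2% in replicates 4 and 5. In KO 5 alone it was at 106% of the mean of wild type 4 and 5 and in KO 4 at 58.7%, and *Hsd17b4* at 79.7% and 40.2%. *Scp2*, whose product is a peroxisomal thiolase and a lipid carrier, had a log2 fold change of -0.22 over all libraries (SE 0.247, adjusted p = 0.816, limma) and of -0.07 without KO 4. It was 0.27 in replicates 1 to 3, higher without overlap, and -0.94 in replicates 4 and 5, lower without overlap.

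*Acaa1a* and *Acaa1b* encode the 2 peroxisomal 3-ketoacyl-CoA thiolases of the mouse and lie near each other on chromosome 9. *Acaa1a* had normalized counts of 793, 887, 1048, 882 and 758 in WT 1 to 5 and of 948, 773, 868, 670 and 834 in the KO-labelled libraries (log2 fold change -0.09, SE 0.162, adjusted p = 0.885, limma). *Acaa1b* had 241, 258, 357, 462 and 424 in wild type and 137, 88.7, 179, 520 and 192 in the KO-labelled libraries. For *Acaa1b* the library labelled KO 4 held the highest value of all 10, and the other 4 lay below every wild-type library. Its log2 fold change was -0.86 (SE 0.401, adjusted p = 0.490, limma), and the first set alone gave -1.11 and the second -0.48. Without KO 4 it was -1.23, and limma with the set term then gave an adjusted p of 0.0172. The counting of these paralogs is uncertain, since 30.5% of the 50-base windows of *Acaa1b* also occur in *Acaa1a*.

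Of the 3 genes for peroxisomal membrane proteins, *Abcd2* and *Abcd3* were lower without overlap in replicates 1 to 3, against 15.1% of all tested genes, and *Pex11a* overlapped. *Abcd2*, a transporter of very long chains, had normalized counts of 1034, 704, 613, 563 and 974 in WT 1 to 5 and of 387, 232, 587, 293 and 750 in KO 1 to 5. KO 3 and 5 lay within the range of wild type and the other 3 below it. The log2 fold change was -0.88 (SE 0.322, adjusted p = 0.346, limma). *Pex11a*, which acts in peroxisome division, was at 95.6% of wild type in replicates 1 to 3 and at 79.3% in replicates 4 and 5, with KO 5 at 97.9% and KO 4 at 60.6%. The ratio of *Abcd3* to *Abcd2* per kilobase overlapped between the groups (3.87 to 7.77 in wild type and 3.71 to 8.47 in the KO-labelled libraries).

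The remaining peroxisomal genes had lower means relative to wild type in replicates 4 and 5 than in replicates 1 to 3, with KO 4 below KO 5 for each of them. In replicates 1 to 3 the isomerase *Ech1* stood at 115% of wild type, the trans-2-enoyl-CoA reductase *Pecr* at 137%, the dienoyl-CoA reductase *Decr2* at 99.6% and *Phyh* at 124%. In replicates 4 and 5 they stood at 84.0%, 60.1%, 49.9% and 87.0%. These means join unlike libraries, since KO 5 was at 109%, 89.0%, 75.0% and 134% of the mean of wild type 4 and 5 and KO 4 at 58.6%, 31.3%, 24.7% and 39.8%, so that *Ech1* and *Phyh* lay above wild type in KO 5. *Amacr*, a racemase for branched chains, had a log2 fold change of -0.67 (SE 0.355, adjusted p = 0.557, limma), and *Hacl1*, the lyase of alpha-oxidation, one of -0.69 (SE 0.321, adjusted p = 0.491, limma). Without KO 4 these were -0.29 and -0.39. *Hacl1* was at 91.9% of wild type in replicates 1 to 3 and at 36.0% in replicates 4 and 5. *Crot*, which makes carnitine esters of the shortened chains for export, was at 90.9% and 85.5%, with KO 5 at 116% of the mean of wild type 4 and 5 and KO 4 below it.

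Of the 5 mitochondrial genes of the carnitine shuttle, *Cpt2*, *Slc25a20* and *Crat* had lower values in both replicate sets, with no overlap within either, against 6.31% of all tested genes, and neither *Cpt1* isoform did. *Cpt2*, which turns acylcarnitines back into acyl-CoA inside the mitochondrion, lies on chromosome 4 from 107903981 to 107923610. Its normalized counts were 5539, 6041, 7073, 4347 and 5717 in WT 1 to 5 and 4594, 2650, 4482, 2198 and 2937 in KO 1 to 5. KO 1 and 3 lay just above the lowest wild-type library, replicate 4, and the rest below. The log2 fold change was -0.81 (SE 0.244, adjusted p = 0.236 over all libraries; SE 0.192, adjusted p = 0.0526 with the set term, limma), and it was -0.71 and -0.97 within the sets. *Slc25a20*, the carnitine-acylcarnitine carrier of the inner membrane, had a log2 fold change of -0.66 (SE 0.253, adjusted p = 0.370, limma). *Crat*, which handles short chains, had -0.59 (SE 0.315, adjusted p = 0.556, limma), and without KO 4 it was at -0.36. In DESeq2 with the set term *Cpt2* had an adjusted p of 0.00228 and *Crat* of 0.0127.

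*Cpt1a* and *Cpt1b* encode the liver-type and muscle-type isoforms of the outer membrane enzyme that commits long chains to oxidation. *Cpt1a* had normalized counts of 381, 300, 338, 210 and 336 in WT 1 to 5 and of 375, 305, 370, 395 and 333 in the KO-labelled libraries, with a log2 fold change of 0.21 (SE 0.189, adjusted p = 0.761, limma). *Cpt1b* had 321, 272, 254, 284 and 400 in wild type and 283, 255, 339, 92.3 and 199 in the KO-labelled libraries, with -0.49 (SE 0.316, adjusted p = 0.630, limma), and -0.19 without KO 4. In KO 1 to 3 *Cpt1b* lay within the range of wild type, and the library labelled KO 4 alone was under 100. The ratio of *Cpt1a* to *Cpt1b* per kilobase was between 0.325 and 0.588 in wild type, between 0.481 and 0.584 in KO 1 to 3, 1.89 in KO 4 and 0.737 in KO 5. Of the 50-base windows of *Cpt1b*, 78.6% also lie in the read-through gene *Gm44502*, so its counts depend on how such reads were assigned.

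In the mitochondrial spiral, *Hadha* and *Hadhb* encode the alpha and beta subunits of the trifunctional protein, which acts on long chains. *Hadha* had normalized counts of 29413, 31430, 35670, 22658 and 33740 in WT 1 to 5 and of 26019, 18111, 24618, 7802 and 15343 in KO 1 to 5. The groups overlapped through wild type 4 alone, and within either set they did not overlap. The log2 fold change of *Hadha* was -0.84 (SE 0.329, adjusted p = 0.391 over all libraries; adjusted p = 0.118 with the set term, limma; adjusted p = 0.0175 in DESeq2 with the set term), and the sets alone gave -0.50 and -1.34. Without KO 4 it was -0.56. *Hadhb* was at 94.4% of wild type in replicates 1 to 3 and at 72.2% in replicates 4 and 5, where *Hadha* was at 71.2% and 41.0%. In KO 5 alone *Hadhb* was at 89.2% and *Hadha* at 54.4% of the mean of wild type 4 and 5. In KO 4 they were at 55.1% and 27.7%. Per kilobase the ratio of *Hadha* to *Hadhb* was 4.15, 4.09, 4.71, 2.64 and 4.16 for WT 1 to 5, and for KO 1 to 5 it was 3.18, 3.10, 3.48, 1.70 and 2.06. It was lower than in wild type within each replicate set, and this ratio, chosen after the values were seen, was not tested. Of the 50-base windows of *Hadhb*, 19.7% occur in other annotated genes, mostly a pseudogene, against 0.341% for *Hadha*.

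These 2 genes are read in opposite directions from a stretch of 85 bases between their outermost GENCODE starts on chromosome 5, at chr5:30155163-30155247 (GRCm38.p6, forward strand). The RefSeq window of 250 bases before *Hadha* spans chr5:30154981-30155230, so the length of the stretch depends on the annotation. The stretch is shown because genes with such a shared upstream stretch had unequal values here. Capitals mark GC boxes, and 69.4% of the bases are G or C.
Hadha-Hadhb: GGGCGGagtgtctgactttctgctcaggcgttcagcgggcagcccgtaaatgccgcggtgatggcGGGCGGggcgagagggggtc

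Among the other enzymes of the spiral, *Hadh*, the dehydrogenase for short and medium chains, had a log2 fold change of -0.50 (SE 0.403, adjusted p = 0.712, limma) and of -0.09 without KO 4, and KO 4 was at 26.0% of the mean of wild type 4 and 5, against 96.7% for KO 5. *Echs1*, the short-chain hydratase, was at 106% of wild type in replicates 1 to 3 and at 51.7% in replicates 4 and 5, and *Acaa2* at 103% and 87.4%. In KO 5 alone *Echs1* was at 78.4% and *Acaa2* at 123% of the mean of wild type 4 and 5, and in KO 4 at 25.0% and 51.7%. Of the acyl-CoA dehydrogenases, which act on chains of different length, *Acadvl* was at 102% and 54.9%, *Acadl* at 95.9% and 73.4% and *Acads* at 93.1% and 58.0%. In KO 5 these 3 were at 74.3%, 85.8% and 80.3% and in KO 4 at 35.4%, 61.0% and 35.7%. *Acadm*, for medium chains, had a log2 fold change of -0.52 (SE 0.266, adjusted p = 0.532, limma) and of -0.31 without KO 4, with no overlap within either set. The genes for unsaturated chains differed among themselves. The isomerase *Eci1* had a log2 fold change of 0.17 (SE 0.188, adjusted p = 0.811, limma), while *Eci2* was at 102% and 49.5% of wild type in the sets and the reductase *Decr1* at 89.1% and 66.4%, with 68.9% and 85.7% in KO 5 and 30.1% and 47.1% in KO 4.

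The 3 genes that carry the electrons of the mitochondrial spiral had log2 fold changes of both signs. *Etfdh* encodes the dehydrogenase that passes the electrons of the flavoprotein to ubiquinone, from chromosome 3, bases 79603788 to 79629500. Its normalized counts were 11012, 10702, 10988, 10383 and 16289 in WT 1 to 5 and 10297, 8656, 9251, 2433 and 7013 in KO 1 to 5. The groups did not overlap, but the highest KO-labelled library (10297) and the lowest wild-type library (10383) were close. The log2 fold change was -0.79 (SE 0.364, adjusted p = 0.482, limma), and it was -0.42 without KO 4, and the sets alone gave -0.22 and -1.65. *Etfa*, the alpha subunit of the flavoprotein, was at 115% of wild type in replicates 1 to 3 and, in KO 4, at 15.3% of the mean of wild type 4 and 5, against 104% in KO 5. *Etfb*, the beta subunit, had a log2 fold change of 0.40 (SE 0.958 over all libraries, 0.206 with the set term, adjusted p = 0.923 over all libraries, limma). Without KO 4 it was -0.14, in a fit with no set term. Within the sets it was 0.16 (replicates 1 to 3) and 0.75 (replicates 4 and 5). KO 4 and 5 (10412 and 10265 normalized counts) both lay above WT 4 and 5 (8220 and 4610). *Etfb* held between 666 and 1016 normalized counts in the 6 libraries of replicates 1 to 3 and between 4610 and 10412 in the 4 of replicates 4 and 5, a difference of 3.27 on the log2 scale (adjusted p = 4.70e-06, limma). Of its 50-base windows 44.8% occur in other annotated genes. Of 36 members 5 differed between the sets, against 38.2% of all tested genes, namely *Etfb*, *Acaa1b* and *Decr1* with higher and *Crat* and *Acox3* with lower values in replicates 4 and 5.

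**Figure D2:**
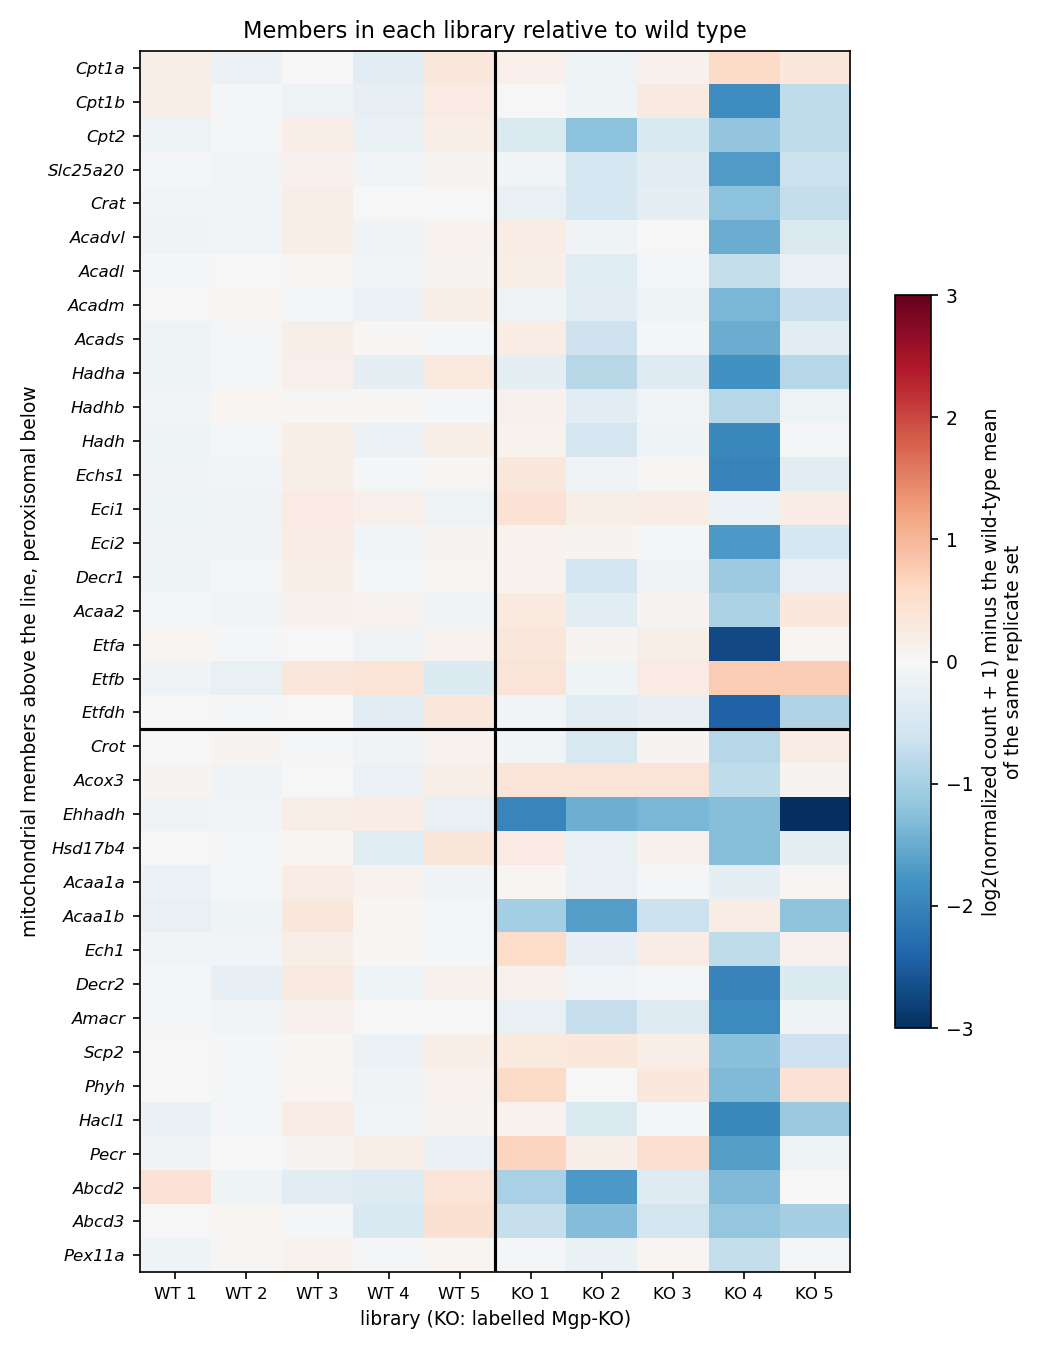
Heat map of the 36 members (rows, mitochondrial above the line) in the 10 libraries (columns), as log2(normalized count + 1) minus the wild-type mean of the same replicate set. Blue is lower and red higher. The row of Ehhadh is blue in all 5 KO-labelled libraries, and the column of KO 4 is blue in 33 of 36 rows, where 48.7% of all tested genes were below that mean in this library.

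Counted over the 10 libraries, 3 of 36 members (*Etfdh*, *Ehhadh* and *Abcd3*) had every KO-labelled library below every wild-type library, against 2.11% of all tested genes, and 0 had the opposite, against 1.39%. In replicates 1 to 3 alone 11 members were lower without overlap, 6 mitochondrial and 5 peroxisomal, against 15.1% of all tested genes. There 4 members (*Etfa*, *Acox3*, *Scp2* and *Pecr*) were higher without overlap, against 15.5%. In replicates 4 and 5, with 2 against 2, 20 members were lower without overlap, 14 mitochondrial and 6 peroxisomal, against 21.3%, and 1 (*Etfb*) was higher, against 20.3%. In both sets 9 members were lower without overlap, 6 mitochondrial (*Cpt2*, *Slc25a20*, *Crat*, *Acadm*, *Hadha* and *Etfdh*) and 3 peroxisomal (*Ehhadh*, *Amacr* and *Abcd3*), against 6.31% of all tested genes.

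Both organelle lists were lowest in the same library. Relative to the wild-type mean of the same replicate set, the median over the mitochondrial members was 0.12, -0.33, -0.06, -1.43 and -0.33 on the log2 scale in KO 1 to 5. That over the peroxisomal members was 0.09, -0.24, 0.00, -1.26 and -0.14. In wild type the medians lay between -0.10 and 0.16 for the mitochondrial and between -0.09 and 0.10 for the peroxisomal members. Each wild-type library counts in the mean it is set against, which narrows this range. The library labelled KO 4 thus stood far below the rest for both organelles, with 18 of 20 mitochondrial and 15 of 16 peroxisomal members under the wild-type mean, against 48.7% of all tested genes. The same library had the highest share of mitochondrial ribosomal RNA reads (16.7%), the highest endothelial marker sum and the hepatocyte marker reads, *Alb* at 104 normalized counts among them, and the part of these in its low values was not tested. Without it the median log2 fold change was -0.15 over the mitochondrial and -0.07 over the peroxisomal members, compared with -0.42 and -0.25 over all libraries. In KO 1 and 3 the list medians lay within the range of wild type and in KO 2 below it, and the lowest single members of these 3 libraries were *Cpt2* among the mitochondrial and *Ehhadh* or *Abcd2* among the peroxisomal genes.

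**Figure D3:**
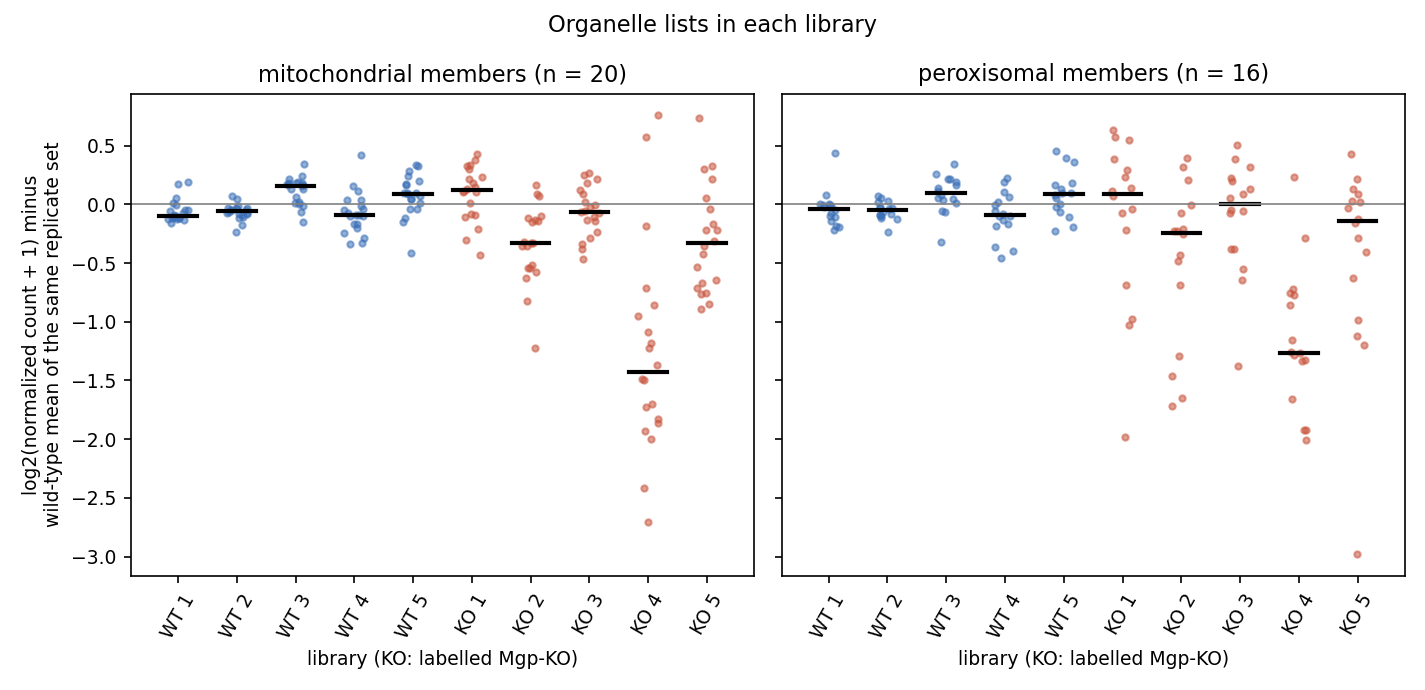
Each point is 1 member in 1 library, as log2(normalized count + 1) minus the wild-type mean of the same replicate set (vertical axis), with black lines at the list median. The left panel holds the 20 mitochondrial and the right panel the 16 peroxisomal members. The medians of KO 4 are at -1.43 and -1.26, and those of the other KO-labelled libraries are between -0.33 and 0.12.

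The difference between the replicate sets was tested for each member as an interaction of genotype and set. It was called for 0 of 36 members in limma, with 8 of 36 at an unadjusted p under 0.05, against 10.3% of all tested genes, and a smallest adjusted p of 0.455. In edgeR it was also called for 0 members, and in DESeq2 for 1, *Scp2*, against 0.459% of all tested genes. The genotype difference was more negative in replicates 4 and 5 for 18 of 20 mitochondrial and 14 of 16 peroxisomal members, and for 51.0% of all tested genes. Without KO 4 these counts were 16 of 20 and 10 of 16, beside 51.6% of all tested genes. In replicates 1 to 3 the median was -0.09 for the mitochondrial and -0.07 for the peroxisomal members, and in replicates 4 and 5 it was -0.97 and -0.72. Relative to the mean of wild type 4 and 5, KO 5 alone had medians of -0.33 and -0.14 and KO 4 of -1.43 and -1.26. Over all libraries the peroxisomal *Acaa1b* and *Abcd2* and the mitochondrial *Cpt1a* and *Etfb* were the 4 members with a less negative or more positive difference in replicates 4 and 5 than in replicates 1 to 3.

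**Figure D4:**
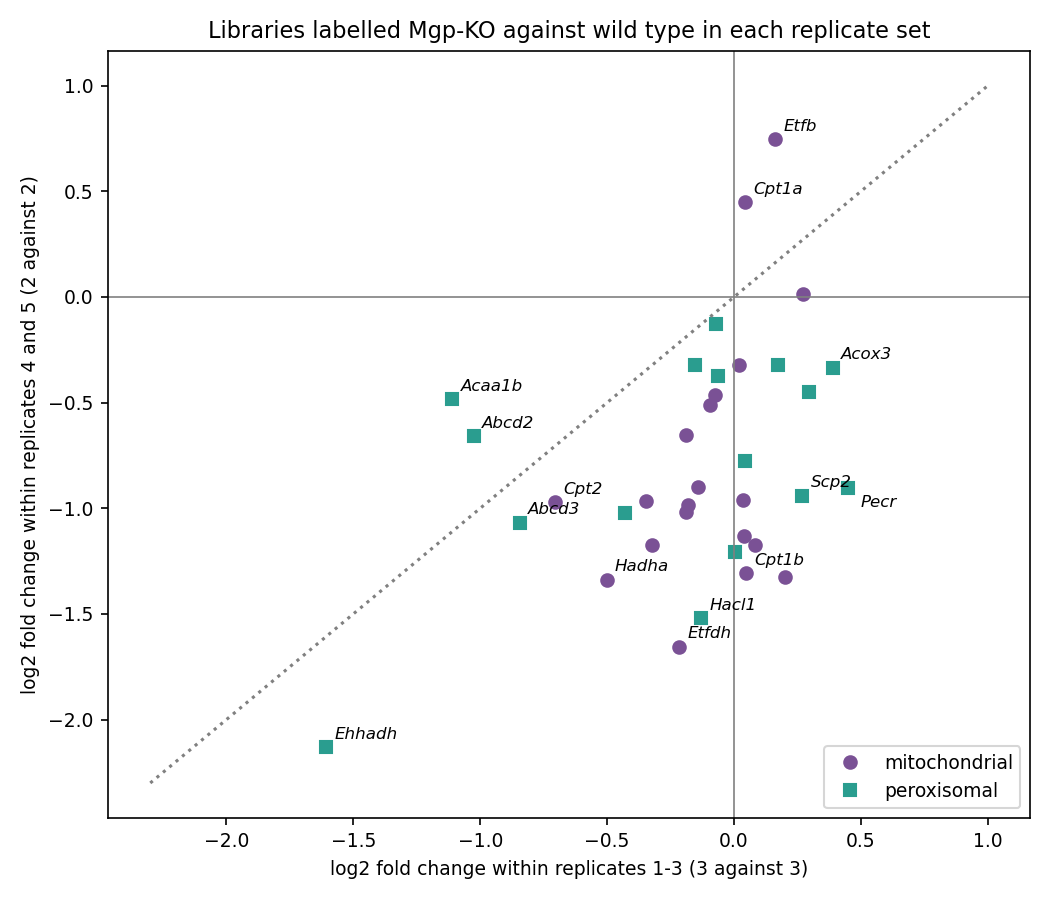
Log2 fold change of each member within replicates 1 to 3 (horizontal axis) and within replicates 4 and 5 (vertical axis), KO-labelled libraries against wild type. Circles are mitochondrial and squares peroxisomal members, and the dotted line marks equal values. Ehhadh is low on both axes (-1.61 and -2.13), and most members lie near 0 on the horizontal and well below 0 on the vertical axis.

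Other genes of these pathways gave few calls. Of 15 peroxins, the proteins that build peroxisomes, 0 passed in limma over all libraries, with 6 lower at an unadjusted p under 0.05, and 1 fell with the set term, where the shares over all tested genes were 5.69% and 1.54%. With the set term 7 of 15 were lower at an unadjusted p under 0.05, against 10.1%. The median log2 fold change of the 15 was -0.42, and -0.24 without KO 4. The peroxin that fell was *Pex16*, which acts in the assembly of the peroxisomal membrane. *Pex16* had 798, 906, 1263, 872 and 1019 normalized counts in WT 1 to 5 and 516, 594, 546, 490 and 435 in KO 1 to 5, with no overlap. Its log2 fold change was -0.90 (SE 0.148, adjusted p = 0.0160 with the set term; adjusted p = 0.0630 over all libraries, limma). Of 19 other tested peroxisomal genes and 13 other tested mitochondrial genes of fatty acid handling, 0 passed in limma with or without the set term, with 5 and 1 lower at an unadjusted p under 0.05 over all libraries, against the same 5.69%, and 5 and 2 with the set term, against 10.1%. Their median log2 fold changes were -0.38 and -0.11, and without KO 4 -0.23 and -0.11. Lower without overlap over all libraries were 2 and 1 of them, against 2.11% of all tested genes. The mitochondrial one was *Acsl1*, an acyl-CoA synthetase, with 28364 to 40252 normalized counts in wild type and 11302 to 22501 in the KO-labelled libraries. It is also named after its values were seen. In replicates 1 to 3 alone 1 gene of each of these lists was called higher, where 1.9% of all tested genes were, and both are named here after their values were seen. They were *Pxmp2*, which encodes a peroxisomal membrane protein (log2 fold change 0.96, adjusted p = 0.0241, limma), and *Hsd17b10*, a mitochondrial dehydrogenase (1.45, adjusted p = 0.0312, limma). In replicates 4 and 5 they had -0.19 and -0.30. There KO 4 and KO 5 had 596 and 926 normalized counts of *Pxmp2*, beside 1244 and 578 in WT 4 and 5. For *Hsd17b10* they had 1324 and 4794, beside 4226 and 2276. Of 11 regulators, the PPARs and their coactivators among them, 0 passed in either fit, with 1 lower at an unadjusted p under 0.05 over all libraries and 2 with the set term, against 5.69% and 10.1% of all tested genes. Their median was -0.16 over all libraries, -0.03 in replicates 1 to 3 and 0.0043 without KO 4.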

How the data were processed

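Normalized counts of 10 libraries of iBAT RNA (single reads of 50 bases) were analysed. The authors mapped the reads to mm10 with STAR, counted them on genes and deposited a signal per gene, the counts divided by the size factor of DESeq2. All values (100%) were whole multiples of 1 read within 0.05 reads, so the reads were recovered, 9253793 to 22252260 per library, and 3 reads correspond to 2.15 to 5.19 normalized counts. The annotation release and strand setting are not given in the sources used here.

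Differences were tested with limma 3.58.1 in R 4.3.3 (trended eBayes) on log2(normalized count + 1), for genes with a mean of at least 10, with Benjamini-Hochberg adjustment over all of them and a threshold of 0.05. Alternatives were other pseudocounts, filters and scalings, a replicate block, a set term, each set alone, each library left out, and edgeR 4.0.16 and DESeq2 1.42.0 on the recovered reads. The set-term fits without wild type 2 or KO 4 and the interaction without KO 4 were added after the data were seen. The members, gene lists and tests were chosen with earlier results of these data known. Values for each library are given for members past the threshold with or without the set term or block, the 3 members of each organelle with the largest fold change, and the *Cpt1* and *Acaa1* pairs. Coordinates and windows of 50 bases are from GENCODE (GRCm38).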

Additional observations from a re-analysis of the deposited data

Results flagged for a closer look

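Single libraries stood apart from the other 4 of their group in 5 of 72 tests of the members (a gap to the nearest library, as a share of the group's range, above Dixon's 95% limit), where chance gives about 1 in 20. In wild type 5, *Etfdh* had 16289 normalized counts and *Abcd3* 8389, each the highest of its group. In the library labelled KO 4, *Acaa1b* was the highest of its group with 520 normalized counts and *Scp2* the lowest with 2143. In KO 2, *Abcd3* was the lowest with 1804.

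*Scp2* was above each of wild type 1 to 3 in KO 1 to 3 and below both wild type 4 and 5 in KO 4 and 5. The genotype difference was -1.21 in replicates 4 and 5 relative to replicates 1 to 3 on the log2 scale (adjusted p = 0.455 in limma, 0.0416 in DESeq2). Opposite differences without overlap in the sets were found for 2.90% of all tested genes (398 of 13714), and 29.7% of the 50-base windows of *Scp2* occur in other annotated genes.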

How the results depend on the processing

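The number of members called was 0 over all libraries with limma. It was 1, *Ehhadh*, with a pseudocount of 10, a mean of at least 50, quantile normalization, replicates 1 to 3 only, edgeR with the replicate block, and the set term without wild type 2. It was 2, *Ehhadh* and *Abcd3*, with the replicate block in limma, the set term and DESeq2, and 2, *Ehhadh* and *Acaa1b*, without KO 4 and 5. It was 5 in DESeq2 with the set term (also *Cpt2*, *Crat* and *Hadha*), which called 4.61% of all tested genes lower, and 4 with the set term without KO 4 (also *Cpt2* and *Acaa1b*), which called 2.69% lower. With single libraries left out it ranged from 0 to 1 (*Ehhadh* without KO 4 or 5). The adjusted p of *Ehhadh* ranged from 0.0246 to 0.180 over these. Within replicates 4 and 5 the medians moved to -0.97 (mitochondrial) and -0.72 (peroxisomal). DESeq2 gave 1 member for the interaction. *Cpt1b* turned to 0.048 and *Scp2* to 0.27 in replicates 1 to 3, and *Etfb* to -1.03 without KO 4 and 5 and to between -0.14 and 0.95 with single libraries left out, below 0 without KO 4 or KO 5. These *Etfb* fits held no set term. Of the 17 members given only by percent of wild type, 11 changed sign in at least 1 of 28 settings. The cause was not tested.

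The labels give both groups replicate numbers 1 to 5. The authors describe 5 pairs of mice and do not say which mice were paired. Deviations of same-numbered libraries correlated at 0.527, 0.0559, 0.327, 0.523 and 0.514, and after removal of the set means at a mean of -0.0224, and 2 of 5 wild-type libraries correlated best with their own number, so the numbers were not taken as pairs. The replicate block called 270 of 13714 genes where the fit without it called 9, and the set term 324. With 2 libraries a group, replicates 4 and 5 call no gene at this depth, with 855 at an unadjusted p under 0.05.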
